A study of Danio rerio with 94 samples.

Results

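1,7-dimethylnaphthalene was compared with 4 other isomers of dimethylnaphthalene, the 1,3-, 1,4-, 1,5- and 1,6-isomers, in zebrafish embryos exposed on the same day. The comparison holds 20 of the 93 samples in the read table, 4 pools of embryos for each of the 5 isomers. The 4 comparators were taken by exposure day and number of methyl groups. 1,7-dimethylnaphthalene itself was chosen by measured values, taken here to be the number of genes that differed between it and the vehicle control. For that reason its differences in gene level from the other isomers are described by their size, standard error and 95% interval. No p-value is attached to them.

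Wild-type 5D embryos were exposed at 20 µM from 6 to 24 hpf (hours post fertilization) in glass vials of 8 embryos and kept in clean medium until 48 hpf. RNA of the whole animal was taken from pools of 6 embryos that looked normal, pooled by vial group. All 20 pools belonged to exposure day 2, and 3 vehicle (DMSO) control pools of the same day are given beside them. The series spans 22 chemicals over 2 exposure days, and 3068 genes were read by TempO-Seq, a targeted assay in which probe pairs that anneal side by side on an RNA are ligated and counted.

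The isomers of dimethylnaphthalene differ only in where the methyl groups sit on the fused pair of aromatic rings. Carbons next to the ring fusion are called alpha and the outer ones beta. In the 1,7- and 1,6-isomers one alpha and one beta carbon on different rings are methylated, in the 1,3-isomer an alpha and a beta carbon of the same ring, and in the 1,4- and 1,5-isomers both methyl groups are at alpha carbons, on the same and on different rings respectively. The genes met below act in several known systems. Lysyl hydroxylases modify collagen so that its fibres can be cross-linked. fkbp5 and klf9 are classical targets of the glucocorticoid receptor, and cyp1a of the aryl hydrocarbon receptor, which binds planar aromatic compounds.

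Levels are given as log2 CPM, counts per M reads after upper-quartile scaling. A gene without reads stands at -2.39 because of the offset the authors added, so differences of genes with few reads are smaller than the true change. Differences are always 1,7-dimethylnaphthalene minus the mean of the 4 isomer means, on the log2 scale, and an error after ± is the SD over pools. A gene was called when its limma adjusted p was at most 0.05 and its difference at least 1 in size.

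Reads throughout are those recovered from the deposited values, after the authors' batch correction, and not the raw counts. By these totals the 1,7 pools were deeper on average. They held 11.1 to 14.0 M reads (mean 12.0 ± 1.36 M, n = 4) against 8.52 to 12.3 M in the isomer pools (mean 10.1 ± 1.15 M, n = 16), a difference of 1.94 M (exact permutation test, two-sided, p = 0.00949). The 1,7 pools also had fewer genes without reads, 293 to 363 against 339 to 412 (difference -39.1, exact permutation p = 0.0064). Neither p passed without 1 of the 1,7 pools, the first being 0.075 without pool C and the second 0.063 without pool D. Both tests took the 16 isomer pools as alike. Genes without reads ran from 364 to 412 in the 1,3 pools and from 339 to 371 in the 1,5 pools. The p-values take no account of such differences among isomers. They also take the 1,7 pools as an unselected draw, though this isomer was chosen by measured values, so no conclusion is drawn from them. On the scaled values 1 read was 0.107, 0.0782, 0.0782 and 0.0932 CPM in 1,7 pools B, C, D and E. In the isomer pools it was 0.0763 to 0.119 CPM, so pool B was not deeper on that scale. The part that depth plays in the results below was not tested. Calls that end when depth is taken into the fit are named where they occur. Lists of markers of 9 cell types all held reads in every pool, with photoreceptor genes the lowest (6.28 to 20.7 CPM in sum over 6 genes). In RNA of whole embryos, fewer cells of a type and less RNA per cell cannot be told apart.

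Against the 4 isomers together, 17 of 3068 genes (0.554%) were called in 1,7-dimethylnaphthalene, 9 higher and 8 lower. Lower were plod1a, per2, fosab, tnfrsfa, pdgfab, nnt, ccnb1 and tubb6. Higher were tcap, mate4, mxc, agt, lgmn, rrm2b, ctss2.1, nipsnap1 and get1. Without the size threshold 199 genes had an adjusted p of at most 0.05 (6.49%), 111 higher (3.62%) and 88 lower (2.87%), so most of these differences were smaller than 1. The median difference over all genes was 0.02, and 1593 genes (51.9%) lay above 0. When samples were centred on their median instead, the called genes were 7 higher and 10 lower, and those past the adjusted p alone were 56 higher of 180.

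The 4 pools of 1,7-dimethylnaphthalene did not overlap the 16 isomer pools in 11 genes that were higher (0.359%) and 9 that were lower (0.293%). Called genes among these were plod1a, nnt, ccnb1 and get1.

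**Figure D1:**
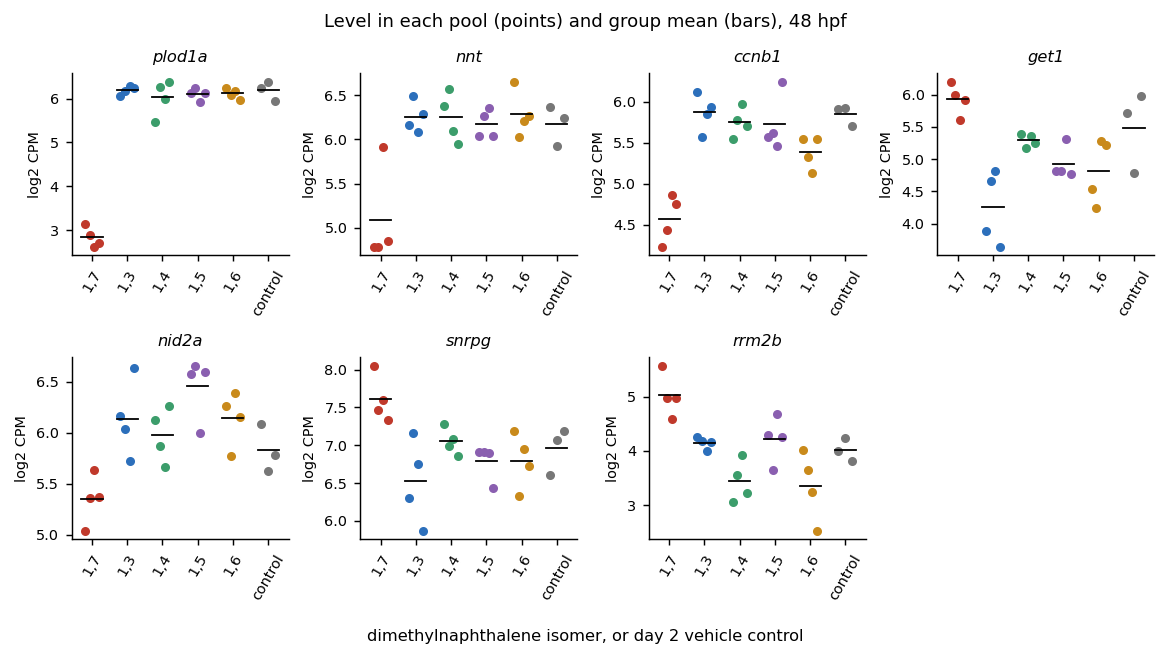
Level in log2 CPM of 7 genes in each pool (points) with the group mean (bars) for 1,7-, 1,3-, 1,4-, 1,5- and 1,6-dimethylnaphthalene (4 pools each) and the day 2 vehicle control (3 pools). The 1,7 points lie outside the range of the 16 isomer points in all genes except rrm2b, where pool D (4.59) is below the highest isomer pool (4.68), and nnt shows 1,7 pool D (5.91) close to the isomers.

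plod1a, a lysyl hydroxylase of collagen, was the gene with the largest difference. Its level was 3.15, 2.90, 2.62 and 2.71 in 1,7 pools B, C, D and E. The 16 isomer pools lay between 5.48 and 6.37 (median 6.15), and the control pools were at 6.24, 6.39 and 5.94. In reads this was 68 to 93 per 1,7 pool and 423 to 1009 per isomer pool. All 1,7 pools were low, and the isomers stood with the control. The difference was -3.27 (standard error 0.19, 95% interval -3.65 to -2.89). No pair of the 4 comparators differed in plod1a, the largest of the 6 differences being 0.17 (95% interval -0.31 to 0.65, limma adjusted p = 0.911 over 6 pairs and 0.987 over all genes).

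The level of plod1a also followed the number that each chemical carries in the sample names. Library 12 is 1,7-dimethylnaphthalene. The neighbours of the same day, libraries 13 (2,6-diisopropylnaphthalene) and 14 (2,7-di-tert-butylnaphthalene), had means of 4.63 ± 0.64 and 4.60 ± 0.15, and library 11, a naphthalene with 4 methyl groups given on day 1, had 2.30 ± 0.83. Libraries 15, 16, 18 and 21, the 4 comparators, had 6.19 ± 0.10, 6.03 ± 0.40, 6.12 ± 0.12 and 6.10 ± 0.14. The lowest means thus sit in a run of neighbouring numbers that contains none of the comparators, and for this gene the position of the methyl groups cannot be told apart from library number.

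**Figure D2:**
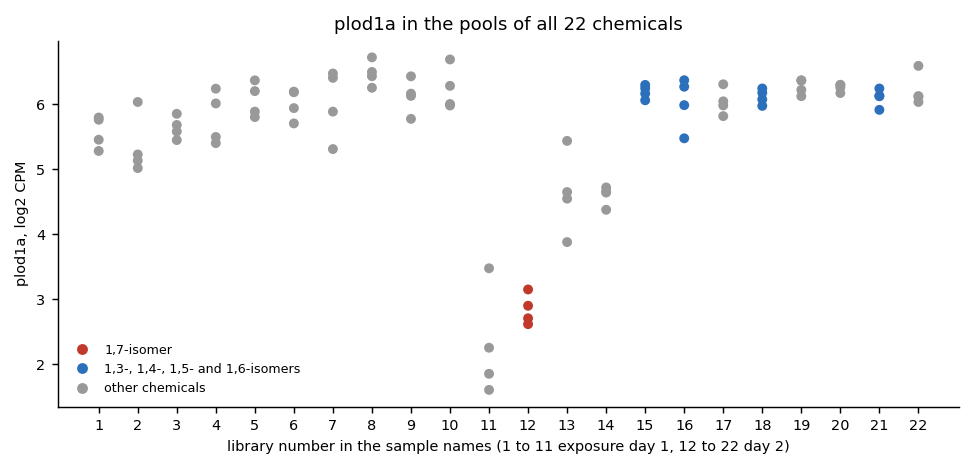
plod1a in log2 CPM (vertical axis) in each pool of the 22 chemicals by the number in the sample names (horizontal axis), 1,7-dimethylnaphthalene in red, its 4 comparators in blue and other chemicals in grey. The means of libraries 11 to 14 (2.30 to 4.63) lie below the lowest of the others (library 2, 5.35), with plod1a of 1,7-dimethylnaphthalene between 2.62 and 3.15 and the comparators between 5.48 and 6.37.

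nnt, the mitochondrial transhydrogenase that makes NADPH, stood at 4.79, 4.78, 5.91 and 4.85 in the 1,7 pools. The isomer pools lay between 5.95 and 6.65 (median 6.24) and the controls at 6.36, 5.92 and 6.24. Pools B, C and E were low, while pool D was only just below the lowest isomer pool. The difference was -1.16 (standard error 0.17, 95% interval -1.49 to -0.83), and without pool D it was -1.43. Libraries 13 and 14 were at 5.89 ± 0.14 and 6.00 ± 0.12, both above the 1,7 mean of 5.09 ± 0.55. me2, the mitochondrial malic enzyme, was lower by 0.97 (standard error 0.27), with 1,7 pools at 5.52 to 6.48 and isomer pools at 6.04 to 7.66, and did not reach the size threshold.

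ccnb1, cyclin B1, which with Cdk1 brings cells into mitosis, stood at 4.23, 4.43, 4.86 and 4.75 in the 1,7 pools. The isomer pools lay between 5.13 and 6.24 (median 5.59) and the controls at 5.91, 5.92 and 5.70. The groups did not overlap, the difference being -1.11 (standard error 0.14, 95% interval -1.40 to -0.83). It fell just under the size threshold without 1,7 pool B, at -0.999. Among the other chemicals the lowest ccnb1 means were those of library 5 (2,7-dimethylnaphthalene, day 1) at 4.89 and library 13 at 4.98. ccnb2, the second cyclin B, did not follow, with 1,7 pools at 1.63 to 3.52, isomer pools at 0.73 to 3.32 and a 95% interval of -0.77 to 1.92.

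get1, part of the membrane receptor that inserts tail-anchored proteins into the endoplasmic reticulum, was the called gene whose 1,7 pools were all above the isomers. Its level was 6.20, 6.00, 5.61 and 5.92, against 3.64 to 5.39 (median 4.82) in the isomer pools and 5.71, 4.79 and 5.97 in the controls. The difference was 1.11 (standard error 0.27, 95% interval 0.57 to 1.65), and the controls overlapped the 1,7 pools. Among the comparators, the 1,3-isomer was below the 1,4-isomer in get1 by 1.04 (95% interval 0.36 to 1.72, limma adjusted p = 0.020 over 6 pairs, 0.510 over all genes). No pair of comparators was called in get1. The call was lost without 1,7 pool B (1.02), and without the 1,3-isomer among the comparators.

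The other genes whose 1,7 pools stood apart from all isomer pools had differences below 1, apart from aip, the co-chaperone that holds the aryl hydrocarbon receptor in the cytosol, which was higher by 1.25 (standard error 0.50) and did not pass the adjusted p. Among the lower ones, nid2a, a nidogen of basement membranes, was at 5.04 to 5.64 against 5.66 to 6.66 (difference -0.83, standard error 0.16). mfap2, a protein of elastic microfibrils, was at 7.19 to 7.48 against 7.79 to 8.22 (difference -0.59, standard error 0.10). Also lower were the synaptic vesicle protein vamp2 (-0.50), the histone acetyltransferase kat6a (-0.44) and the purine nucleoside phosphorylase pnp5b (-0.69).

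Among the higher ones, snrpg, a core protein of the spliceosome, was at 7.33 to 8.05 against 5.87 to 7.28 (difference 0.82, standard error 0.20). cks1b, which binds cyclin-dependent kinases, was at 7.49 to 7.98 against 6.73 to 7.38 (difference 0.64, standard error 0.11). icn, an S100-type calcium-binding protein, was at 12.94 to 13.58 against 11.87 to 12.77 (difference 0.63, standard error 0.11). The rest were brms1la of histone deacetylase complexes (0.66), gstp1, a glutathione transferase (0.49), the spindle checkpoint protein mad2l1 (0.47), the lysosomal phospholipase pla2g15 (0.57), the cytokine receptor chain il2rgb (0.68) and dad1, a subunit of the enzyme that glycosylates proteins (0.41).

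**Figure D3:**
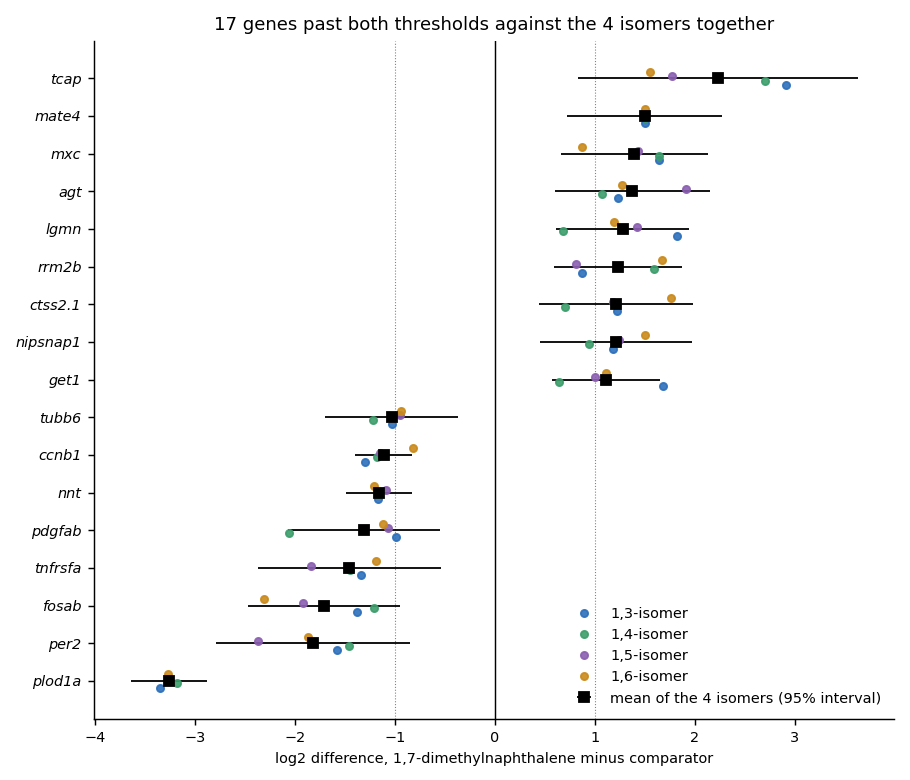
Log2 difference of 1,7-dimethylnaphthalene from the mean of the 4 isomers (black squares, bars show the 95% interval) and from each isomer alone (coloured points) for the 17 called genes, dotted lines marking a difference of 1. The points of plod1a, nnt and tubb6 lie close together, whereas those of tcap run from 1.55 to 2.92 and those of fosab from -2.31 to -1.21.

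The transcripts of per2 and fosab were lower in 1,7-dimethylnaphthalene mainly through pool C. per2, a light-induced repressor of the circadian clock, was at 2.26, -1.23, 1.89 and 2.48 in the 1,7 pools, against 2.18 to 3.98 (median 3.34) in the isomer pools and 3.26, 3.38 and 3.37 in the controls. Pool C held 3 reads, the others 43 to 58. The difference was -1.82 (standard error 0.49), and without pool C it was -0.96 and not called. Low per2 was not particular to the 1,7-isomer. Libraries 13 and 14, its neighbours of the same day, had means of 1.67 ± 0.67 and 2.23 ± 0.59. Library 4 of day 1 had 1.85 ± 1.36, and the comparator means were 2.82 to 3.72. The part of library number in per2 was not tested. fosab, an immediate early gene and subunit of the transcription factor AP-1, was at 4.33, 0.27, 1.86 and 3.68, against 3.32 to 5.71 (median 4.21) and controls of 6.14, 5.99 and 5.19. Pools C and D were below all isomer pools, while B and E were among them. The difference was -1.71 (standard error 0.38), -0.95 and not called without pool C, and the isomers themselves stood 1.53 below the control mean. The SD over the 1,7 pools was 1.74 in per2 and 1.84 in fosab, against 0.21 to 0.73 and 0.31 to 0.79 in the isomers. The standard errors, fitted over all groups, do not carry that spread in full.

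tnfrsfa, a receptor of the tumour necrosis factor family, was at 0.93, 1.66, 2.67 and 2.71 against 2.36 to 4.35 (difference -1.46, standard error 0.46), and 1 control pool was as low, at 1.32. pdgfab, a platelet-derived growth factor A chain, was at 1.16, 1.92, 0.75 and 0.67 against 0.70 to 3.67 (difference -1.31, standard error 0.38). tubb6, a beta-tubulin, was at 0.34 in pool B and 3.07 to 3.84 in the other pools, against 3.15 to 4.40 (difference -1.03, standard error 0.34). Its difference was -0.26 without pool B, so the call rested on that pool. All of these groups overlapped. The tnfrsfa call was lost without 1,7 pool B (-1.10) or C (-1.35), 1,3 pool A (-1.40), 1,5 pool B (-1.41) or 1,6 pool C (-1.40), and the pdgfab call without 1,7 pool B (-1.32), D (-1.19) or E (-1.16). The tubb6 call was lost without any of 9 isomer pools as well, at -1.03 to -0.98, and the tnfrsfa and tubb6 calls ended when read depth was added to the fit.

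tcap, the titin cap of the muscle Z-disc, had the largest positive difference, 2.24 (standard error 0.70, 95% interval 0.84 to 3.63). It was at 5.44, 3.74, 4.52 and 2.71 in the 1,7 pools, 404, 168, 290 and 68 reads. The isomer pools ranged widely, from -0.71 to 3.65 (median 2.00), and the controls were at 3.71, 3.90 and 3.17. Pools B, C and D were above all isomer pools and E was not. The isomers stood 1.73 below the control and 1,7-dimethylnaphthalene 0.51 above it. The call was lost without 1,7 pool B (1.79), C (2.36) or D (2.097), without 1,4 pool A (2.06), 1,5 pool D (2.14) or 1,6 pool B (2.16), and with depth in the fit.

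Lysosomal proteases were among the higher genes. ctss2.1, a cathepsin S, was at 5.37, 4.94, 4.38 and 3.90 in the 1,7 pools, against 2.36 to 4.17 (median 3.45) and controls of 1.83, 2.54 and 2.24 (difference 1.22, standard error 0.39). Here 1,7-dimethylnaphthalene and its isomers were both above the control, by 2.44 and 1.23. lgmn, the lysosomal endopeptidase legumain, was at 4.73, 4.49, 5.22 and 4.65, against 1.87 to 4.72 (median 3.50) and controls of 3.64, 3.31 and 4.32 (difference 1.28, standard error 0.33). ctsla, a cathepsin L read at a high level, was at 12.40 to 12.96 against 11.28 to 12.61 (difference 0.58, standard error 0.14). In a list of 10 measured genes of lysosomes and cathepsins these were the 3 past the adjusted p, all higher, where 3.62% of all genes were, and the median difference was 0.20, against 0.02 over all genes. The ctss2.1 call was lost without 1,7 pool B (0.98), C (1.12) or D (1.31), without 1,4 pool E (1.18), 1,5 pool A (1.202) or 1,6 pool E (1.17), without the 1,3-, 1,5- or 1,6-isomer among the comparators, and with depth in the fit, a pseudocount of 4 CPM or median centring. The lgmn call was lost without 1,7 pool B (1.29) or D (1.13).

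rrm2b, the p53-induced subunit of ribonucleotide reductase, was at 5.58, 4.97, 4.59 and 4.98, against 2.52 to 4.68 (median 3.96) and controls of 3.99, 4.24 and 3.82 (difference 1.23, standard error 0.32). Only pool D reached into the range of the isomers. Of 23 measured genes of p53 and DNA damage, rrm2b alone passed the adjusted p (4.35%, where 6.49% of all genes did), and the median difference of the list was 0.09. Its call was lost without pool B (1.05).

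mxc, an interferon-induced GTPase of the Mx family, was at 4.04, 4.04, 4.78 and 4.54, against 1.64 to 4.88 (median 3.03) with controls of 3.41, 3.91 and 3.55 (difference 1.40, standard error 0.37). agt, angiotensinogen, the precursor of angiotensin made by the liver, was at 5.07, 5.49, 4.35 and 4.52, against 2.06 to 4.58 (median 3.69) with controls of 4.55, 4.27 and 5.54 (difference 1.38, standard error 0.39). nipsnap1, a mitochondrial protein, was at 4.04, 4.77, 4.25 and 4.00, against 0.94 to 4.28 (median 3.06) with controls of 3.47, 3.81 and 3.58 (difference 1.22, standard error 0.38). For agt the control mean of 4.79 was nearly that of 1,7-dimethylnaphthalene, 4.86, and the isomer mean of 3.48 was lower, with overlapping pools. mate4 was read in pools C and D alone, with 28 and 10 reads, and had 0 reads in pools B and E, the 16 isomer pools and the 3 controls, so its fitted difference depends on the offset and its call on 2 pools (0.78 without pool C and 1.21 without D, neither called). The mxc call was lost without 1,7 pool D (1.26) and the agt call without 1,7 pool B (1.305) or C (1.16). The nipsnap1 call was lost without 1,7 pool B (1.29), C (1.05) or D (1.22), 1,4 pool E (1.096), 1,5 pool E (1.15) or 1,6 pool C (1.06).

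**Figure D4:**
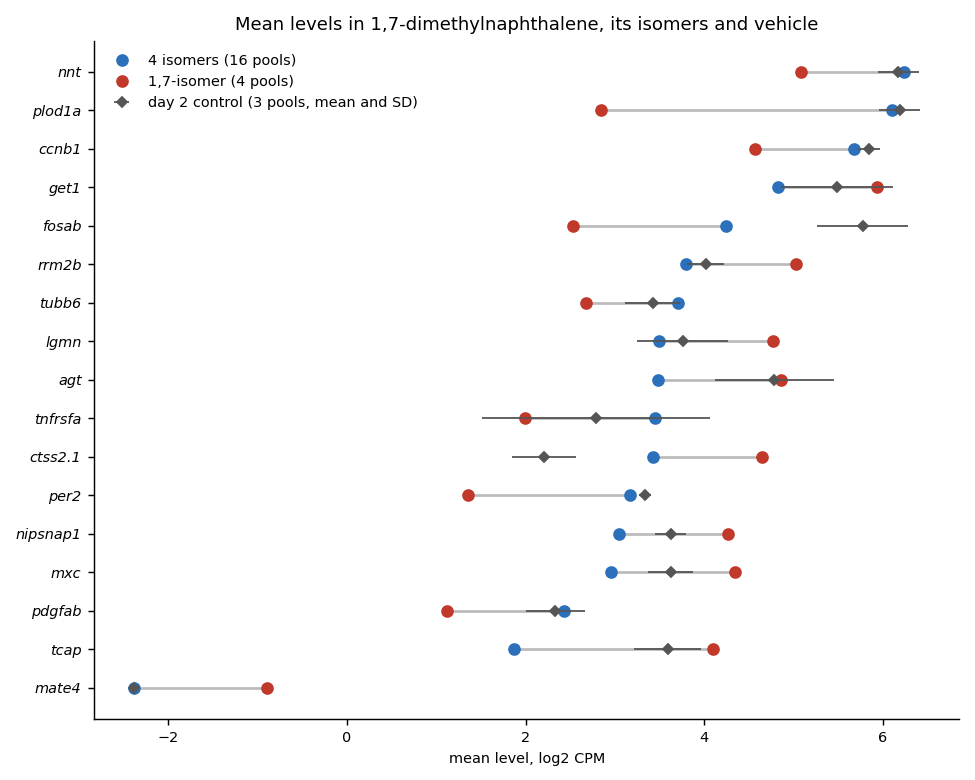
Mean level in log2 CPM of the 17 called genes in 1,7-dimethylnaphthalene (red, 4 pools), the 4 isomers (blue, 16 pools) and the day 2 vehicle control (grey diamonds with SD, 3 pools), ordered by the isomer mean. For 12 genes the control lies between or at the other two marks, as in agt (control 4.79), and for 5 genes 1,7-dimethylnaphthalene lies beyond the isomers on the same side of the control, as in fosab (2.54, 4.24 and 5.77).

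In plod1a, per2, fosab, ccnb1 and ctss2.1, 1,7-dimethylnaphthalene lay farther from the control than its isomers did, in the same direction. For plod1a, per2 and ccnb1 the isomers were within 0.17 of the control mean, and 1,7-dimethylnaphthalene was 3.35, 1.99 and 1.28 below it. In the other 12 genes the control mean lay between both or at the isomers. In nnt the isomers were 0.07 above the control and 1,7-dimethylnaphthalene 1.09 below. In tcap, agt, get1, mxc and nipsnap1 the isomer mean was below the control by 0.57 to 1.73 while 1,7-dimethylnaphthalene was above it by 0.07 to 0.73.

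The 4 pools of 1,7-dimethylnaphthalene did not differ from the isomers to the same degree. Of the 17 called genes, pool C was beyond the range of the 16 isomer pools in 13, pool B in 11, pool D in 10 and pool E in 7. Over all genes, 26.3% lay outside that range in pool B, 17.0% in pool C, 20.0% in pool D and 8.93% in pool E. For comparison, each isomer pool lay outside the range of the other 15 in 7.95% to 16.5% of genes (median 10.6%). Those 15 include pools of the same isomer, whereas the 16 set against a 1,7 pool do not, so the percentages are not fully alike. Pool E lay within the isomer percentages and the other 3 pools above them, pool C only narrowly. Leaving out pool E gave 26 calls and leaving out pool B 10. plod1a and nnt stayed called against the isomers together whichever of the 20 pools was left out.

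Other settings also ended calls. The fit to only the 20 pools leaves fewer samples to estimate the spread, which then comes from the 5 isomers alone. It ended the calls of tcap, per2, fosab, mate4, mxc, agt, pdgfab, lgmn, nipsnap1 and tubb6. A pseudocount of 4 CPM ended those of per2, mate4, tnfrsfa, pdgfab, nipsnap1, ccnb1 and tubb6 beside ctss2.1, and voom those of fosab, tnfrsfa, pdgfab and tubb6. Median centring ended that of nipsnap1 beside ctss2.1. Leaving out the 1,5-isomer ended the calls of agt, tnfrsfa and nipsnap1, leaving out the 1,4-isomer those of tcap and pdgfab, leaving out the 1,3-isomer that of tcap, and leaving out the 1,6-isomer that of nipsnap1. The tubb6 call was lost without any of the 4 isomers.

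Against single isomers, which share the 1,7 pools so that the 4 comparisons are not independent, 11 genes were called against the 1,3-isomer (0.359%), 10 against the 1,4-isomer (0.326%), 19 against the 1,5-isomer (0.619%) and 14 against the 1,6-isomer (0.456%). plod1a and nnt were called in all 4, and ccnb1 in all but the 1,6-isomer, where it was lower by 0.82 (95% interval -1.18 to -0.46). Against the 1,5-isomer, nnt fell just under the size threshold without 1,7 pool B or C (-0.99 each), and ccnb1 without 1,5 pool E (-0.98). Of the genes called together, tcap, mate4, tnfrsfa, nipsnap1 and tubb6 were called against none of the 4 isomers alone. For rrm2b, get1 and lgmn, the size of the difference varied with the isomer. rrm2b was higher by 1.59 and 1.67 than in the 1,4- and 1,6-isomers but by 0.87 and 0.81 than in the 1,3- and 1,5-isomers (standard error 0.41 each). get1 was higher by 1.68 than in the 1,3-isomer and by 0.64 than in the 1,4-isomer (standard error 0.34). lgmn was higher by 1.82 than in the 1,3-isomer and by 0.69 than in the 1,4-isomer (standard error 0.42). No pair of comparators passed in rrm2b (smallest limma adjusted p = 0.117 over 6 pairs, 0.674 over all genes) or lgmn (0.056 and 0.553).

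The 1,6-isomer shares with the 1,7-isomer an alpha and a beta methyl group on different rings. Against it, ctsla was higher by 1.06 (standard error 0.17), spc25, a kinetochore protein, by 1.43 (0.40, and 0.94 without 1,6 pool C), fkbp14, an endoplasmic prolyl isomerase of collagen folding, by 1.52 (0.42), and rbks, ribokinase, by 1.51 (0.36). Lower were junba, an AP-1 subunit (-1.26, standard error 0.37, and -0.66 without 1,6 pool C), me2 (-1.13, standard error 0.34), the eye field regulator rx3 (-1.21, standard error 0.29), and fgfbp2b, a fibroblast growth factor binding protein (-1.14, standard error 0.22). tnfa, tumour necrosis factor, was called lower, but rested on 17, 16 and 1 reads in the 1,6 pools and 0 in the 1,7 pools. Also under the size threshold without 1 pool were ctsla (0.91 without 1,6 pool B), me2 (-0.91 without 1,6 pool E) and fgfbp2b (-0.91 without 1,7 pool B).

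Against the 1,5-isomer more genes were lower than higher, 14 against 5. Matrix genes among them were nid2a (-1.10, standard error 0.20) and col6a2, a chain of collagen VI (-1.03, standard error 0.30), beside igfbp7, an insulin-like growth factor binding protein (-3.29, standard error 0.96), which had 5 to 54 reads in the 1,5 pools and at most 1 in a 1,7 pool. per1b (-1.19, standard error 0.30), a clock repressor like per2, the immediate early gene ier2b (-1.25, standard error 0.34), fgfbp2b (-1.03, standard error 0.22) and rrp1, a ribosome biogenesis factor (-1.09, standard error 0.30), were also called. The per2 and fosab differences from the 1,5-isomer were -2.37 and -1.92, and -1.504 and -1.17 without 1,7 pool C. Higher were ggh, gamma-glutamyl hydrolase of folate metabolism (1.13, standard error 0.34), rbm12b, an RNA-binding protein (1.17, standard error 0.26), and eapp (2.28, standard error 0.68). Several of these fell under the size threshold without 1 pool. Without 1,7 pool B these were col6a2 (-0.81), nid2a (-0.999), fgfbp2b (-0.80) and ggh (0.90). Without 1,7 pool D they were col6a2 (-0.90), per1b (-0.84) and rrp1 (-0.88), and without 1,7 pool C rrp1 (-0.85). Leaving out a 1,5 pool did so for col6a2 (-0.94 without B, -0.994 without D), fgfbp2b (-0.89 without A), ggh (0.86 without E) and rbm12b (0.97 without A).

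Against the 1,3-isomer the calls beyond those above were slc4a1a, the anion exchanger of red cells (-1.12, standard error 0.28), sst1.1, somatostatin (-1.61, standard error 0.41), rrp1 (-1.10, standard error 0.30), snrpg (1.09, standard error 0.25) and sult2st1, a sulfotransferase (1.56, standard error 0.44). Against the 1,4-isomer they were bnip4 (1.54, standard error 0.41, and 0.82 without 1,4 pool E), the adaptor gene sla1a (1.44, standard error 0.35) and rbp2b, a retinol binding protein (-1.35, standard error 0.29), while the calls of cd37 and tapbpl rested on 0 to 13 reads in pools of the 1,4-isomer (tapbpl at -1.301, and at -0.86 without 1,4 pool B). Against the 1,3-isomer, calls under the size threshold without a 1,7 pool were slc4a1a (-0.97) and snrpg (0.94), both without pool B. So was rrp1, at -0.86 without pool C and -0.90 without pool D. Leaving out 1,3 pool E gave 0.87 for snrpg and -0.90 for rrp1. Markers of red cells, a list of 6 measured genes that holds slc4a1a itself, were summed. The sum was 121 to 315 CPM in the 1,7 pools, 252 to 457 in the pools of all 4 isomers and 225 to 417 in the controls. All 6 had differences below 0, where 51.9% of all genes lay above it. Only slc4a1a, already called above, passed the adjusted p (16.7%, where 2.87% of all genes were lower past it). Their part in the result was not tested.

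**Figure D5:**
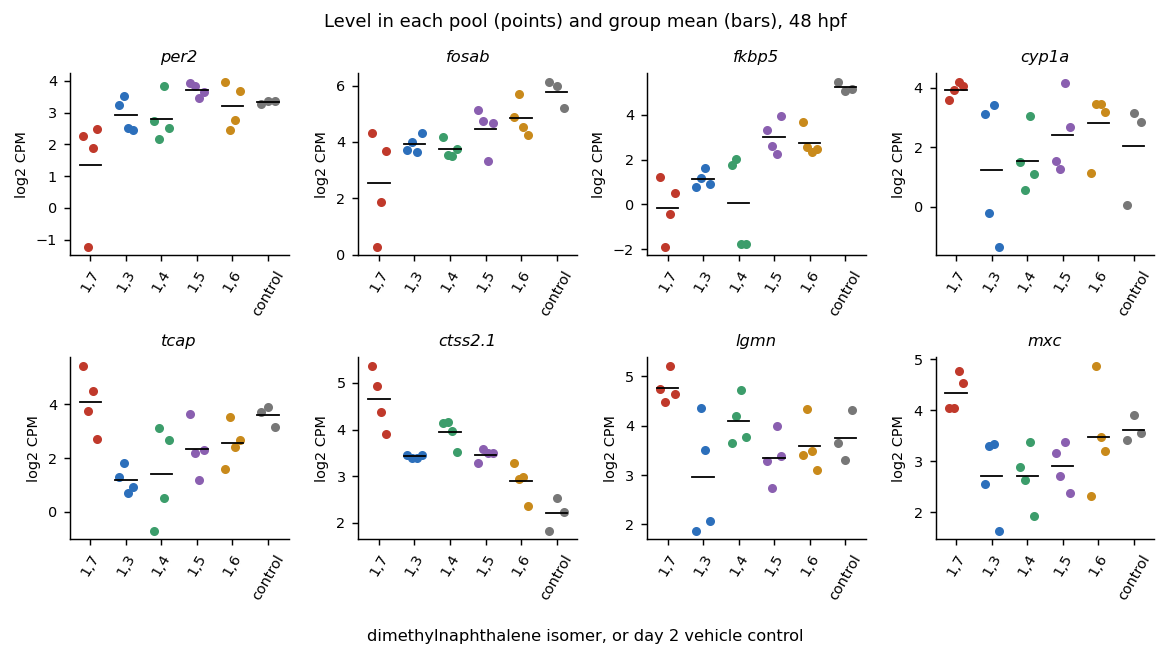
Level in log2 CPM of 8 genes in each pool (points) with the group mean (bars) for the 5 isomers (4 pools each) and the day 2 control (3 pools). The 1,7 points of per2 and fosab spread over more than 3 log2 units (per2 from -1.23 to 2.48), fkbp5 is below the controls (5.07 to 5.48) in all isomers, and cyp1a is between 3.58 and 4.22 in the 1,7 pools and between -1.35 and 4.17 in the isomer pools.

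Genes with large differences from the vehicle were not all different from the isomers. fkbp5, which binds the glucocorticoid receptor complex through Hsp90, was at 1.22, -1.89, -0.44 and 0.49 in the 1,7 pools (1 to 20 reads). The isomer pools ranged from -1.77 to 3.93 (median 2.13) and the controls were at 5.48, 5.07 and 5.15. All 20 exposed pools were below the controls, and 1,7 pools overlapped the isomer pools. The difference of -1.89 (standard error 0.76, 95% interval -3.40 to -0.38) was not called, but became so with only day 2 pools in the fit and without the 1,4-isomer among the comparators. Against the 1,5-isomer alone fkbp5 was called (-3.17, 95% interval -5.08 to -1.25). The means of fkbp5 were 1.13 ± 0.36, 0.06 ± 2.11, 3.01 ± 0.75 and 2.76 ± 0.62 in the 1,3-, 1,4-, 1,5- and 1,6-isomers, and no pair of them was called. The 1,4-isomer was below the 1,5-isomer by 2.95 (95% interval 1.04 to 4.86, limma adjusted p = 0.018 over 6 pairs and 0.321 over all genes) and below the 1,6-isomer by 2.70 (adjusted p = 0.019 and 0.332), and it held 2 pools with 1 read each. It was not set apart from the 1,7-isomer, with a difference of -0.21 (95% interval -2.13 to 1.70).

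klf9, a transcription factor induced by glucocorticoids, was at -0.26, -0.60, -0.99 and -1.82 against -2.39 to 2.32, with controls of 3.03, 3.62 and 1.37 (difference -0.90, 95% interval -2.35 to 0.56). klf11a, a related factor, was at 6.01 to 6.97 against 6.37 to 7.61 (95% interval -0.57 to 0.10). nt5e, an ectonucleotidase with at most 35 reads in any pool, had an interval of -1.73 to 1.91, too wide to place it. For nt5dc2, a protein of the nucleotidase family, the interval was narrow, -0.54 to -0.09, and a difference of 1 lay outside it. fgfbp2b was lower by 0.85 (standard error 0.18) and rx3 by 0.83 (standard error 0.23), both past the adjusted p and under the size threshold. The connexin cx30.3 was at 3.29 to 4.72 against 1.89 to 4.35 (95% interval 0.03 to 1.53).

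cyp1a, the cytochrome P450 best known as induced through the aryl hydrocarbon receptor, was at 3.58, 3.93, 4.22 and 4.05 in the 1,7 pools. The isomer pools ranged from -1.35 to 4.17 (median 2.12) and the controls were at 0.08, 3.17 and 2.86. The 1,7 pools were alike (3.94 ± 0.27) and the isomers were not, with an SD of 2.39 in the 1,3-isomer. High cyp1a was not particular to the 1,7-isomer. Library 13 of the same day had a mean of 4.53 ± 1.26, and library 3 (1,2-dimethylnaphthalene, day 1) had 5.54 ± 0.16. The means of the other chemicals were 2.91 or lower. The difference was 1.93 (standard error 0.76, 95% interval 0.42 to 3.45) and was not called with limma on the deposited values, whereas voom on the reads and pseudocounts of 1 and 4 CPM called it. Of 13 measured genes of this response 0 passed the adjusted p and the median difference was 0.00. cyp1c1 (-0.38, standard error 0.33), cyp1b1 (0.41, standard error 0.35) and the poly-ADP-ribosyltransferase tiparp (-0.32, standard error 0.19), all known targets of the receptor, had differences within 2 standard errors.

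By list, with all genes as the background (6.49% past the adjusted p, median difference 0.02), the lists and the genes in them having been chosen with earlier results known, 4 of 19 glucocorticoid response genes were lower past the adjusted p and 0 higher. They were per2, per1b (-0.80), bcl6aa, a transcriptional repressor (-0.64), and foxo3b, a forkhead factor (-0.54). The list median was -0.31 and 4 of 19 differences were above 0. In the circadian list, which shares the period genes with it, 2 of 14 were lower, per2 and per1b, with a median of -0.30. nr1d1, the clock repressor Rev-erb alpha, was at 0.07 to 1.70 against 0.39 to 3.68 (difference -1.21, standard error 0.57) and did not pass.

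Of 20 immediate early genes, fosab and ier2b (-0.81, standard error 0.27) were lower past the adjusted p (10%, where 2.87% of all genes were). Of the 20 differences 3 were above 0, where 51.9% were over all genes, and the median was -0.31. junba was at 4.26 to 5.04 against 3.91 to 7.65 (95% interval -1.08 to 0.07). Of 34 genes of collagen processing and extracellular matrix, 5 were lower (14.7%, where 2.87% of all genes were) and 0 higher past the adjusted p, with a median of -0.13. Beside plod1a these were plod3, a further lysyl hydroxylase (-0.74, standard error 0.20), the collagen I chains col1a1b (-0.44, standard error 0.12) and col1a2 (-0.34, standard error 0.11), and col4a2 of basement membranes (-0.60, standard error 0.15). The collagen differences were small and their pools overlapped, col1a1b being at 10.51 to 11.26 against 10.90 to 11.72. nid2a and mfap2, matrix genes given above as lower, were not in this list.

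The cell cycle list of 54 genes did not move one way. ccnb1 and the proliferation antigen mki67 (-0.31, standard error 0.08) were lower, while cks1b, mad2l1, cdc20, the activator of the anaphase complex (0.48, standard error 0.11), and the kinase inhibitor cdkn1ca (0.49, standard error 0.10) were higher, and the median was 0.07. Of 23 NADPH and redox enzymes nnt and me2 were lower and hmox1a, a haem oxygenase (0.66, standard error 0.14), gstp1 and sod1, superoxide dismutase (0.37, standard error 0.11), were higher, with a median of 0.11. Past the adjusted p were 11.1% of the cell cycle list and 21.7% of the redox list, against 6.49% of all genes.

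Of 14 skeletal muscle genes, acta1a, an alpha-actin (-0.63, standard error 0.18), the myosin light chain myl1 (-0.45, standard error 0.12) and the M-band protein myom2a (-0.46, standard error 0.13) were lower past the adjusted p, and pvalb4, a parvalbumin (0.27, standard error 0.08), and sgcb of the sarcoglycan complex (0.45, standard error 0.11) were higher, none of them called. They made up 35.7% of the list, where 6.49% of all genes passed. tcap of the muscle Z-disc, which was called, was not in this list. 39 ribosomal protein genes, a list put together after their values were seen, had a median of 0.20, with 12 higher and 1 (rps4x) lower past the adjusted p, such as rpl32 at 13.73 to 14.24 against 13.28 to 13.74 (difference 0.45, standard error 0.08). Of the ribosomal list 33.3% passed the adjusted p, against 6.49% of all genes. Of 29 genes of xenobiotic metabolism, cyp2y3, a cytochrome P450 (0.40), and gstp1 were higher (6.9%, against 3.62% of all genes, median 0.23). Of 15 genes of fibroblast growth factor signalling, fgfbp2b alone was lower (6.67%, against 2.87% of all genes, median -0.08). Of 4 eye and homeobox factors rx3 and vsx1 (-0.42) were lower (50%, against 2.87% of all genes, median -0.34). Lists of heat shock and chaperones (15 genes, median -0.33), heart (3 genes, 0.33), connexins (2 genes, 0.41) and nucleotidases (4 genes, 0.06) had 0 genes past the adjusted p.

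Among cell type markers, ins, insulin of pancreatic beta cells, was at 6.16 to 6.45 against 6.45 to 7.33 (difference -0.65, standard error 0.16). It alone of 5 pancreas and gut markers passed the adjusted p (20%, where 2.87% of all genes were lower past it). These 5 markers summed to 132 to 167 CPM against 144 to 273. The liver genes apoa2 (0.56, standard error 0.18) and fgg (0.47, standard error 0.14) were higher past the adjusted p (18.2%, against 3.62% of all genes). Of 11 liver differences 7 were above 0, where 51.9% were over all genes. The 11 liver markers summed to 7200 to 10807 CPM against 5650 to 9134, with 6352 to 8688 in the controls. agt, which the liver also makes, was higher than in the isomers and near the control mean. nefma, a neurofilament (-0.68, standard error 0.16), was lower and plp1a of myelin-forming glia (0.34, standard error 0.10) higher among 14 neural markers. These were 14.3% of the list, where 6.49% of all genes passed the adjusted p. The sum of the 14 overlapped fully (1909 to 2575 against 1967 to 2705 CPM). cnmd, a cartilage protein, was lower by 0.66 (standard error 0.22). Of 11 notochord and cartilage markers 3 had differences above 0. All 11 summed to 2324 to 3655 CPM against 2867 to 4460, with 3790 to 4507 in the controls. Sums of every cell type list overlapped between the groups. Of the epidermal, endothelial, leukocyte and photoreceptor genes 0 passed the adjusted p. Of the 5 endothelial genes 0 had a difference above 0, with a median of -0.35. The part of any of these markers in the results was not tested.

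Few genes were called between the 4 comparators. With 4 pools each, a lack of calls does not show that the isomers were alike. Uncalled differences reached 2.95 in fkbp5 and 2.03 in klf9. Over the 6 pairs among them, 4 pairs had 0 called genes (0%) and 2 pairs had 1 each (0.0326%), by limma. At an unadjusted p under 0.05 there were 165 to 263 genes per pair, where a fraction of about 0.05 of the 3068 genes passes by chance. With voom, 0 genes were called in 4 pairs, 1 in another and 2 in the last. The called gene was nucb2a, nucleobindin 2a, precursor of the peptide nesfatin, in both. Its level was 9.93 ± 0.17, 9.86 ± 0.18, 8.85 ± 0.16 and 9.38 ± 0.27 in the 1,3-, 1,4-, 1,5- and 1,6-isomers and 9.28 ± 0.34 in the 1,7-isomer. The 1,5-isomer was lower by 1.07 than the 1,3-isomer (95% interval 0.66 to 1.49, limma adjusted p = 1.3e-05 over 6 pairs and 0.0069 over all genes, lower in 4 of 4 pools) and by 1.001 than the 1,4-isomer (adjusted p = 2.5e-05 and 0.026). 1,7-dimethylnaphthalene was not set apart in this gene, its difference from the isomers together being -0.22 (95% interval -0.55 to 0.11).

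24 genes had reads in a 1,7 pool and in none of the 16 isomer pools, against 10, 7, 13 and 19 genes read in the 1,3-, 1,4-, 1,5- or 1,6-isomer alone among the 5. Of the 24, 5 were read in 2 pools (mate4, abcg1, stc1 and vtg2 among them) and 0 in all 4, with at most 28 reads in a pool. The 1,7 pools had the highest mean depth, whose part in these low values was not tested.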

How the data were processed

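RNA of whole zebrafish embryos was profiled by TempO-Seq. The authors demultiplexed and aligned reads to probes with TempO-SeqR, summed the probes of a gene, removed the effect of exposure and extraction day with ComBat_seq, and applied upper-quartile scaling. The deposited values are log2 CPM. Unlogged, 100% of them were whole reads within 0.02, after the authors' batch correction (8.52 to 14.0 M per pool of the 5 isomers, 0.0696 to 0.148 CPM per read over the series). The labels list 94 samples, of which 93 have a column. The authors' table of comparisons with the control (log2 fold change, t, p-value, log-odds) was not used.

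limma 3.58.1 (R 4.3.3) was fitted to the log2 values of 3068 genes in all 93 samples as 23 groups, with the control pools of both days as 1 group and no covariate. Isomers were weighted equally. Genes were called where the p adjusted after Benjamini and Hochberg was 0.05 or less and the difference was 1 or more in size. Read totals were compared by exact permutation over 4845 choices of pools. Scripts were tested on simulated data. No replicate pools were duplicates. P-values measure the spread between pools.

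Named genes were all those called against the isomers together or singly or in a comparator pair, and a fixed list. Members of gene lists past a test were also named, and genes whose pools did not overlap were named after their values were seen. 1 gene listed by a number only was tested and not named. The isomers, genes and lists were chosen with earlier results of these data known. Alternatives were voom on the recovered reads, the samples in the fit, low-value filter, pseudocount, median centring, replicate block, depth as covariate, and leaving out pools or isomers. Differences from single isomers without each pool were added after seeing the data. Results for some genes are not reported here.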

Additional observations from a re-analysis of the deposited data

Results flagged for a closer look

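In 10 of 150 groups of 4 pools (28 genes and the depth measures), 1 pool stood apart from the other 3 by Dixon's test, where chance gives about 1 in 20 groups. In 1,7-dimethylnaphthalene, per2 was at -1.23 log2 CPM in pool C against 1.89 to 2.48 in the others. nnt was at 5.91 in pool D against 4.78 to 4.85. fgfbp2b was at 4.57 in pool B against 5.47 to 5.53, and nt5e at 1.98 in pool B against -2.39 to -1.82. In the 1,4-isomer, tnfrsfa was at 2.66 in pool E against 3.66 to 3.78, and nr1d1 at 1.12 in pool B against 2.38 to 2.54. In the 1,6-isomer, pool B held fkbp5 at 3.68 against 2.35 to 2.54 and cyp1a at 1.14 against 3.19 to 3.47. In the 1,5-isomer, get1 was at 5.31 in pool D against 4.77 to 4.82, and pool E held 12.0 M reads against 9.39 to 9.83 M.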

How the results depend on the processing

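The direction of 27 of the 28 gene differences tried held under every alternative run, and that of nt5e, near 0, turned in 8 of 32 (to -0.96 without 1,7 pool B). The 17 calls against the isomers together became 26 with voom (22 higher, 4 lower), 7 with only the 20 pools in the fit and 10 with a pseudocount of 4 CPM. With only the 20 pools the single-isomer counts were 4, 5, 6 and 7 for the 1,3-, 1,4-, 1,5- and 1,6-isomers. With read depth as a covariate they were 11 for the 1,5-isomer and 9 for the 1,6-isomer. Between the 1,4- and 1,5-isomers the 1 call became 2 with voom, day 2 pools only or median centring, and 0 with the 20 pools, either pseudocount or depth. Between the 1,4- and 1,6-isomers there were 2 calls with the 20 pools and 1 with day 2 pools, and between the 1,3- and 1,6-isomers 1 with depth. The causes were not tested.

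Leaving out 1 pool at a time gave 10 (without 1,7 pool B) to 26 calls (without 1,7 pool E) together. It gave 5 to 30, 5 to 27, 8 to 32 and 6 to 29 calls against the 1,3-, 1,4-, 1,5- and 1,6-isomers, the highest without 1,7 pool E. Among the comparators it gave 0 to 2 (1,3 and 1,4), 1 to 2 (1,3 and 1,5), 0 to 1 (1,3 and 1,6), 0 to 3 (1,4 and 1,5), 0 to 3 (1,4 and 1,6) and 0 to 1 (1,5 and 1,6). The read total differed by 1.27 to 2.24 M and genes without reads by -48.9 to -25.5.

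Pools with the same letter did not deviate together (correlations -0.12 to 0.05, median 0.0096), so letters only name pools. With the letter as a replicate block, 16 genes were called together and 0 between the 1,4- and 1,5-isomers. Depth limits genes with few reads, where 1 read is 0.0696 to 0.148 CPM.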
